A study of Mus musculus with 25 samples.

Results

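The importin alpha family and its partner importin beta 1 were followed through the first days of mouse development, from the mature oocyte to the late 2-cell embryo. The members were chosen by symbol and are the 6 importin alpha genes Kpna1, Kpna2, Kpna3, Kpna4, Kpna6 and Kpna7 and the importin beta gene Kpnb1, which makes 7 of the 24412 symbols in the files. RNA was sequenced from 25 libraries of 4 stages and 2 genotypes, wild type (WT) and Smarca4 knockout (KO). The oocytes, arrested at MII, gave 3 WT and 2 KO libraries, and zygotes at the pronuclear stage PN3 gave 4 of each genotype. The 2-cell stage was sampled early (E2C) and late (L2C), each time with 3 libraries per genotype. Smarca4 encodes Brg1, an ATPase of SWI/SNF chromatin remodelling complexes. Per the labels' protocols, females aged 8 to 12 weeks were superovulated with 7 IU PMSG and, 48 h later, 5 IU hCG, and their oocytes were meant for sperm injection (ICSI). They were either B6D2F1 hybrids or Smarca4 flox/flox C57BL/6 animals with Gdf9-Cre, a driver active in the oocyte. Which strain a library came from, how many females or embryos it pooled and which Smarca4 allele the sperm brought are not stated in the labels. A strain difference and the genotype can therefore not be told apart, and p-values measure the spread between these libraries only.

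Importin alpha proteins are the adaptors of classical nuclear import. They bind the nuclear localisation signal of a cargo and dock it to importin beta 1, which carries the complex through the nuclear pore. In the nucleus RanGTP releases the cargo, and the exportin Cse1l returns importin alpha to the cytoplasm. Subfamilies of importin alpha differ in the cargoes they prefer: Kpna2 and Kpna7 form one, Kpna3 and Kpna4 another, and Kpna1 and Kpna6 one more. Kpna7 is known as the member of the oocyte and the early embryo, where imported factors must reach the pronuclei before the embryo's own genome is transcribed.

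Of the libraries as a whole, 3 points touch the results. Smarca4 itself separated the genotypes at every stage: KO libraries held 0.220 and 0.222 scaled FPKM at MII against 26.1 to 30.7 in the WT, and still held 21.1 to 22.6 at L2C against 48.8 to 90.9. WT E2C replicate 2 had 9345 genes above 0 where the other 24 libraries had 13585 to 16698. WT L2C replicate 3 stood apart from the other WT libraries of its stage in marker levels, which are given beside the Kpna7 result. At least 7 of the 8 oocyte markers were at or above an FPKM of 1 in every library. Markers of other cells were low: 10 cumulus and granulosa genes summed to between 1.31 and 6.78 scaled FPKM, 4 blood genes to at most 0.840, and 6 sperm and testis genes to between 1.20 and 20.4, the highest in KO E2C replicate 2. FPKM are relative to the other RNA of a library, so fewer embryos, less RNA per embryo and a change in total RNA cannot be told apart.

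The annotated start regions of Kpna7, which fell, Kpna2, the highest member in every group, and Kpna4, which rose, are printed. Whether oocytes or embryos use these starts was not tested. RefSeq windows of 300 bases (250 before to 50 after the start, build GRCm38.p6, minus strand, written 5′ to 3′ along the gene) were matched for 4 of the 7 members: Kpna2, Kpna4, Kpna7 and Kpnb1. Capitals mark CG dinucleotides. The Kpna7 window is chr5:145009587-145009886, that of Kpna2 chr11:106999476-106999775 and that of Kpna4 chr3:69127043-69127342.
Kpna7: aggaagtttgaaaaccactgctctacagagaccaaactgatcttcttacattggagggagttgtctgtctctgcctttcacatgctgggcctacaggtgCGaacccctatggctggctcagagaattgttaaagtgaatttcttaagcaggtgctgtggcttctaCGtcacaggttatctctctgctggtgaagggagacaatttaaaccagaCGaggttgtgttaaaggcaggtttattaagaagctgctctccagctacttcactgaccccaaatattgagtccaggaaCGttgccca
Kpna2: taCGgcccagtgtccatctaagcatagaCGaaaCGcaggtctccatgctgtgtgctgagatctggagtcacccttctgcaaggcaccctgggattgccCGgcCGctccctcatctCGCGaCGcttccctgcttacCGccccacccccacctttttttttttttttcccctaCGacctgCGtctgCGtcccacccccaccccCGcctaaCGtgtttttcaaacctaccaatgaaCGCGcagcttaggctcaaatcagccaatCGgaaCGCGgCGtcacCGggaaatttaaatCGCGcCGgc
Kpna4: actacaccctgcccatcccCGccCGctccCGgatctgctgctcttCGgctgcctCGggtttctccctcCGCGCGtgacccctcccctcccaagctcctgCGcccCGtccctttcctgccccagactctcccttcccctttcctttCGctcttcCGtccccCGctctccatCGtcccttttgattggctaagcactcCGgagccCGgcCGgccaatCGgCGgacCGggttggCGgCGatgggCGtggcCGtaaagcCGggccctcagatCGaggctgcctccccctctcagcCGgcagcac
The Kpna7 window held 4 CG, the Kpna2 window 24, the Kpna4 window 27 and the Kpnb1 window 35, against a median of 7 over 32851 windows of the same length. As few CG as in Kpna7 or fewer were found in 38% of windows, and as few as in Kpna2 in 81.6%. The GC content was 46.7% in Kpna7, 57.7% in Kpna2, 68.7% in Kpna4 and 72.0% in Kpnb1. On both strands, the GC box GGGCGG, each copy of which contains a CG, was matched 0 times in Kpna7, once each in Kpna2 and Kpna4 and 3 times in Kpnb1, and 35.7% of all windows hold it. The E-box letters CANNTG were matched 3 times in Kpna7 and 0 times in the other 3, and 72.3% of windows hold them. CCAAT occurred in all 4 windows and in 37.4% of all windows, and TATAAA in 0 of the 4 and in 13.6% of all windows. These are letter matches in fixed windows and describe no binding.

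Kpna7, which lies at chr5:144983727-145009636, was abundant from the oocyte to the early 2-cell embryo and fell before the late 2-cell stage. WT libraries held 110, 113 and 111 scaled FPKM in oocytes, 99.3, 94.8, 98.1 and 101 in zygotes, and 102, 85.6 and 99.8 in early 2-cell embryos. At L2C they held 6.41, 10.6 and 25.8. The first 3 stages lay close together, and every L2C library lay below every earlier one, with replicate 3 the highest of its group. The change from MII to L2C was -3.09 on the log2(FPKM + 1) scale (SE 0.19, limma adjusted p = 1.13e-12), which left 12.8% of the MII mean. Most of it came between E2C and L2C, where the change was -2.87 (SE 0.27, adjusted p = 1.35e-08). The step from MII to PN3 was -0.18 with no overlap of the groups and an adjusted p of 0.0517, and the step from PN3 to E2C was -0.04. Fitted on the MII and PN3 groups alone, the first step had an adjusted p of 0.00838. Of the annotated exon bases of Kpna7, 50 (1.59%) overlap Arpc1a on the opposite strand, and whether the authors' values used strand is not stated.

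**Figure D1:**
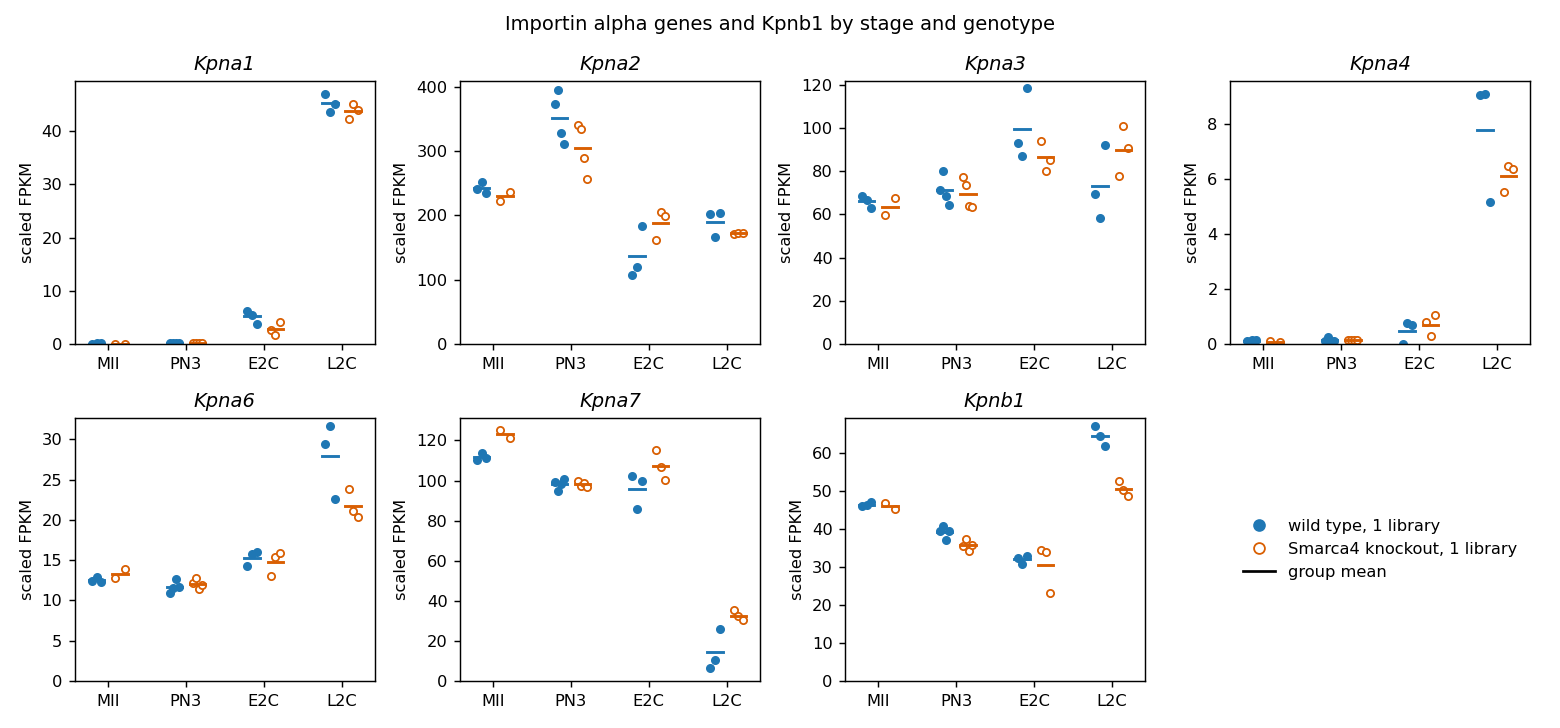
Scaled FPKM (linear axes from 0, 1 panel per gene) of the 7 members by stage, with 1 point per library (filled, WT; open, KO) and a line at each group mean. Kpna7 drops between E2C and L2C, from a WT mean of 96.0 to 14.3, while Kpna1 climbs from 5.21 to 45.2 and Kpna4 from 0.493 to 7.77.

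Kpna1, Kpna4 and Kpna6 rose toward the late 2-cell stage. Kpna1 (chr16:35983288-36037136) was barely present before cleavage, with 0.105, 0.135 and 0.156 scaled FPKM in the WT oocytes and 0.203 to 0.284 in the WT zygotes. It reached 6.31, 5.52 and 3.80 at E2C and 47.0, 43.5 and 45.0 at L2C. No 2 of these 4 groups overlapped. The step from MII to PN3, at values far below an FPKM of 1, was 0.13 (limma adjusted p = 0.0887). It passed with 0.1 added in place of 1 (0.56, adjusted p = 0.00089). It also passed with every library scaled to the same FPKM total (0.41, adjusted p = 0.00186). The rise from PN3 to E2C was 2.30 (log2, SE 0.18, adjusted p = 1.92e-09) and that from E2C to L2C 2.92 (SE 0.23, adjusted p = 8.91e-10). The L2C mean was 342 times the MII mean. Kpna1 met the minimum for testing only through libraries of the 2-cell stages, so a difference from the earlier stages was built in. Kpna1 had risen by the early 2-cell stage, at which the Kpna7 change from the zygote was -0.04 (95% confidence interval -0.47 to 0.40).

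Kpna4 (chr3:69072221-69127092), of the Kpna3 subfamily, had its called step between E2C and L2C and reached a lower level than Kpna1. Its WT values were 0.10 to 0.149 at MII and 0.104 to 0.266 at PN3, and the E2C libraries held 0, 0.777 and 0.703. At L2C they held 9.06, 9.10 and 5.17. The WT E2C and PN3 groups overlapped through the 0 of E2C replicate 1. The step between them was 0.33 (limma adjusted p = 0.216) on a log2(FPKM + 1) scale that understates changes of low genes. KO E2C libraries held 0.795, 0.283 and 1.05, above the KO PN3 range of 0.153 to 0.170. Some Kpna4 RNA may thus have been gained by E2C. The L2C libraries lay above all others. The change from E2C to L2C was 2.56 (log2, SE 0.26, adjusted p = 2.92e-08). Kpna4 met the minimum of an FPKM of at least 1 in 3 libraries only through its 6 L2C libraries, and Kpna1 only through its 12 libraries of the 2-cell stages, so that a difference between stages was built into both.

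Kpna6 (chr4:129643979-129672767), the nearest relative of Kpna1 here and a known maternal factor for the first cleavages, was already present in the oocyte. It held 12.3 to 12.9 scaled FPKM in the WT oocytes, 10.9 to 12.6 in the zygotes and 14.3, 15.7 and 16.0 at E2C. At L2C it held 29.4, 31.6 and 22.6. The rise from E2C to L2C was 0.81 (log2, SE 0.19, adjusted p = 0.000997) and that from MII to L2C 1.08 (SE 0.13, adjusted p = 1.24e-07). The step from PN3 to E2C was 0.37 with no overlap and an adjusted p of 0.0607, and it passed with those groups fitted alone (adjusted p = 0.0423) and without WT PN3 replicate 3 (0.40, adjusted p = 0.0396).

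Kpna2 (chr11:106988629-106999525) had the highest mean of the 7 members in all 8 groups. In the WT it held 241, 252 and 234 scaled FPKM in oocytes and 373, 394, 328 and 311 in zygotes. Early 2-cell libraries held 107, 120 and 183, and late ones 201, 166 and 204. It rose from MII to PN3 by 0.53 (log2, SE 0.07, adjusted p = 2.51e-06) and fell from PN3 to E2C, by 1.39 (SE 0.21, adjusted p = 2.2e-05). The E2C and L2C groups overlapped, with a difference of 0.51 and an adjusted p of 0.118, or 0.74 and 0.0415 without WT E2C replicate 3. From MII to L2C the difference was -0.35, with no overlap and an adjusted p of 0.0899, and it passed the threshold in the unscaled values (-0.58, adjusted p = 0.0104) and with the 2 groups fitted alone (adjusted p = 0.0293). A processed copy of the gene on chromosome 17, Kpna2-ps, matches it at 92.9% over 1596 bases and is not among the symbols analysed here, so Kpna2 values may include or lack reads shared with it.

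Kpna3 (chr14:61365186-61439947) had no called step in the WT. Its values ran from 62.8 to 68.6 in oocytes, 64.3 to 80.1 in zygotes, and then 87.2 to 119 early and 58.5 to 92.1 late in the 2-cell stage. The PN3 to E2C step was 0.47 with groups that did not overlap (adjusted p = 0.067), and it passed with those groups fitted alone (adjusted p = 0.0275), without WT PN3 replicate 2 (adjusted p = 0.0329) and without WT E2C replicate 2 (adjusted p = 0.0318). The E2C to L2C step was -0.45 (adjusted p = 0.139), or -0.63 (adjusted p = 0.038) without WT L2C replicate 3. From MII to L2C the difference was 0.12 and changed sign to -0.10 in the unscaled values.

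Kpnb1 (chr11:97159710-97187892), the import carrier itself, dipped and recovered. WT oocytes held 46.1 to 47.1 scaled FPKM, zygotes 37.3 to 40.9, early 2-cell embryos 30.8 to 33.1 and late ones 61.9 to 67.2, and no 2 of these groups overlapped. The fall from MII to PN3 was -0.24 (log2, SE 0.04, adjusted p = 7.12e-05) and the rise from E2C to L2C 0.99 (SE 0.16, adjusted p = 1.52e-05). With 1 spread shared by all stages the fall lost its call (adjusted p = 0.167), and with those groups fitted alone it kept it (adjusted p = 0.00398). The step from PN3 to E2C was -0.28 (adjusted p = 0.081). It passed with the PN3 and E2C groups fitted alone (adjusted p = 0.0434) and in the unscaled values (-0.50, adjusted p = 0.00707). From MII to L2C it rose by 0.46 (adjusted p = 0.000566), which became 0.24 with an adjusted p of 0.0768 in the unscaled values. Exons of the antisense gene Gm11583 overlap 466 of its exon bases (7.07%).

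Counted over the 7 members, all of which passed the minimum, WT calls were 1 higher and 1 lower from MII to PN3, beside 19.2% of all 12079 tested genes called higher and 26.1% called lower. From PN3 to E2C they were again 1 higher and 1 lower, beside 12.9% and 18.1%; with those 2 groups fitted alone 5 members passed in place of 2. From E2C to L2C they were 4 higher and 1 lower, beside 34.1% and 18.3%, and from MII to L2C 4 higher and 1 lower, beside 40.4% and 33.3%. The median change of the members from MII to L2C was 0.46, and that of all tested genes 0.13. Of the 4 rises, those of Kpna1 and Kpna4 belong to genes that met the minimum only through the 2-cell stages, so their part of the count followed from the filter and the count is a description.

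As shares of the summed importin alpha FPKM, the WT oocyte pool was 56.0% ± 0.5 Kpna2 (SD, n = 3), 25.8% ± 0.5 Kpna7 and 15.3% ± 0.5 Kpna3, with 2.90% ± 0.03 Kpna6. Kpna7 made up 18.5% ± 1.9 at PN3 (n = 4), 27.5% ± 4.1 at E2C (n = 3) and 3.88% ± 2.44 at L2C (n = 3), where it was 2.54% without WT L2C replicate 3. Kpna1 went from 0.0306% ± 0.0064 at MII to 12.7% ± 1.1 at L2C, and Kpna6 to 7.91% ± 2.10. The summed pool was 433 ± 12 scaled FPKM in WT oocytes (n = 3), 533 ± 43 in zygotes (n = 4), 354 ± 60 in early 2-cell embryos (n = 3) and 359 ± 38 in late ones (n = 3). Set against Kpnb1, oocytes held 9.30 ± 0.34 units of importin alpha per unit of Kpnb1, zygotes 13.6 ± 0.8, early 2-cell embryos 11.0 ± 1.6 and late ones 5.57 ± 0.73. In these means the late 2-cell embryo had the lowest ratio of importin alpha to importin beta RNA of the 4 stages. These shares are a description with no test.

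**Figure D2:**
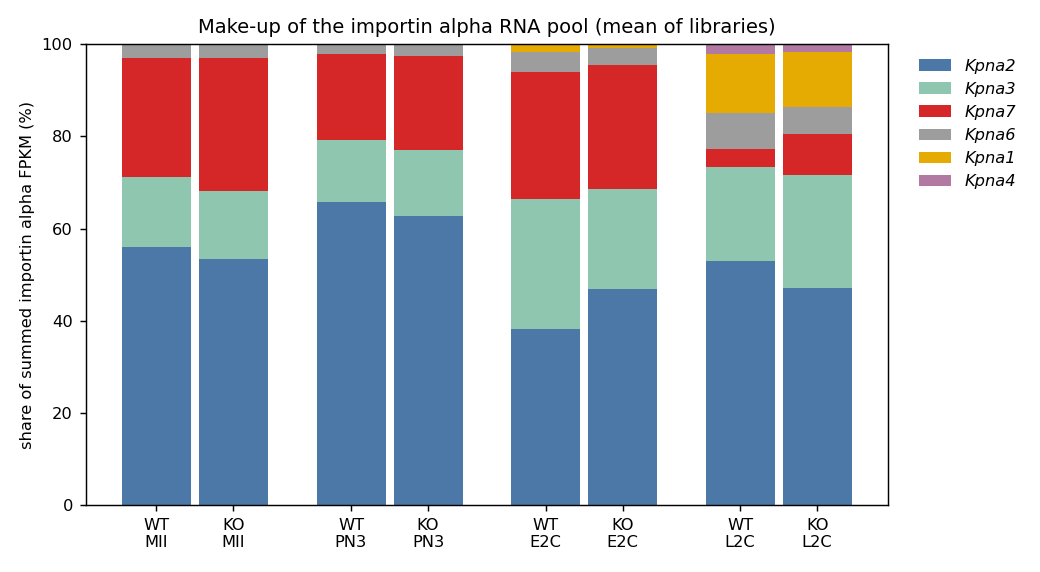
Mean share (%) of each importin alpha gene in the summed importin alpha FPKM, stacked, for the 8 groups. The Kpna7 band is 25.8% in WT oocytes and 3.88% in WT L2C embryos, against 8.91% in KO L2C embryos.

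The order of the levels changed with it. In WT oocytes and zygotes it ran Kpna2, Kpna7, Kpna3, Kpnb1 and Kpna6, each group of libraries clear of the next, with Kpna1 and Kpna4 last and overlapping. At WT E2C the libraries of Kpna2 and Kpna3 overlapped, as did those of Kpna3 and Kpna7. At WT L2C Kpna2 stayed first, Kpna3 and Kpnb1 overlapped, and Kpna1 stood above Kpna7. Over the 25 libraries the log2 values of Kpna1, Kpna4 and Kpna6 had Pearson r of 0.95, 0.93 and 0.94 with one another (Kpna1 with Kpna4, Kpna1 with Kpna6, Kpna4 with Kpna6). Kpna7 had r of -0.85 with Kpna1, -0.93 with Kpna4 and -0.92 with Kpna6. The points share their stage, so these values mostly restate the stage means, and they carry no test.

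Between genotypes, 1 difference in 28 passed the threshold: Kpna7 was higher in KO than in WT late 2-cell embryos. KO libraries held 35.2, 32.2 and 30.4 scaled FPKM, above all 3 WT libraries at 6.41, 10.6 and 25.8. The KO mean of 32.6 was 2.28 times the WT mean of 14.3, and the difference was 1.35 (log2, SE 0.26, 95% confidence interval 0.81 to 1.88, limma adjusted p = 0.0205). In the KO course the Kpna7 mean was 123 in oocytes, 98.0 in zygotes, 107 in early and 32.6 in late 2-cell embryos, so 26.4% of the MII mean was left at L2C, against 12.8% in the WT. Without WT L2C replicate 3 the WT mean was 8.50, which is 7.62% of the MII mean, and the KO mean was 3.83 times it.

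The call did not hold in every fit. With the 6 L2C libraries fitted alone the adjusted p was 0.295 for the same difference, a fit in which 0% of genes were called. It was also lost without WT replicate 1 (0.93, adjusted p = 0.159), WT replicate 2 (1.25, adjusted p = 0.149), KO replicate 2 (1.35, adjusted p = 0.134) or KO replicate 3 (1.39, adjusted p = 0.150), and was 1.86 (adjusted p = 1.44e-07) without WT replicate 3. The change of the KO effect from E2C to L2C was 1.18 (95% confidence interval 0.38 to 1.98, adjusted p = 0.289). It passed with 1 spread shared by all stages (adjusted p = 0.0474) and without WT L2C replicate 3 (1.69, adjusted p = 0.000185), and had an adjusted p of 0.446 with the 4 groups fitted alone.

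Oocyte and 2-cell markers also set WT replicates 1 and 2 apart from the other L2C libraries. The summed level of 8 oocyte markers at L2C was 311, 386 and 796 scaled FPKM in the WT and 664, 890 and 915 in the KO. The 6 2-cell markers summed to 52.9, 61.7 and 214 in the WT and 168, 186 and 190 in the KO. WT replicate 3 lay within the KO range for the oocyte markers and above it for the 2-cell markers. Its Smarca4, at 48.8 scaled FPKM, was below the 90.9 and 74.4 of WT replicates 1 and 2. That library also held the highest Kpna7 and the lowest Kpna4 and Kpna6 of its group. Within the KO libraries the order was the opposite, with the highest Kpna7 in replicate 1, which had the lowest marker sums. None of the 8 oocyte markers passed the threshold between genotypes at L2C, with a median difference of 0.39. The 2 highest, named after their values were seen, were Oosp1 at 1.36 (adjusted p = 0.0901) and Bmp15 at 0.99 (adjusted p = 0.0584), and all 8 fell from MII to L2C in the WT. The Kpna7 difference was larger without WT replicate 3, as given above. The part of the marker or Smarca4 levels in that difference was not tested.

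**Figure D3:**
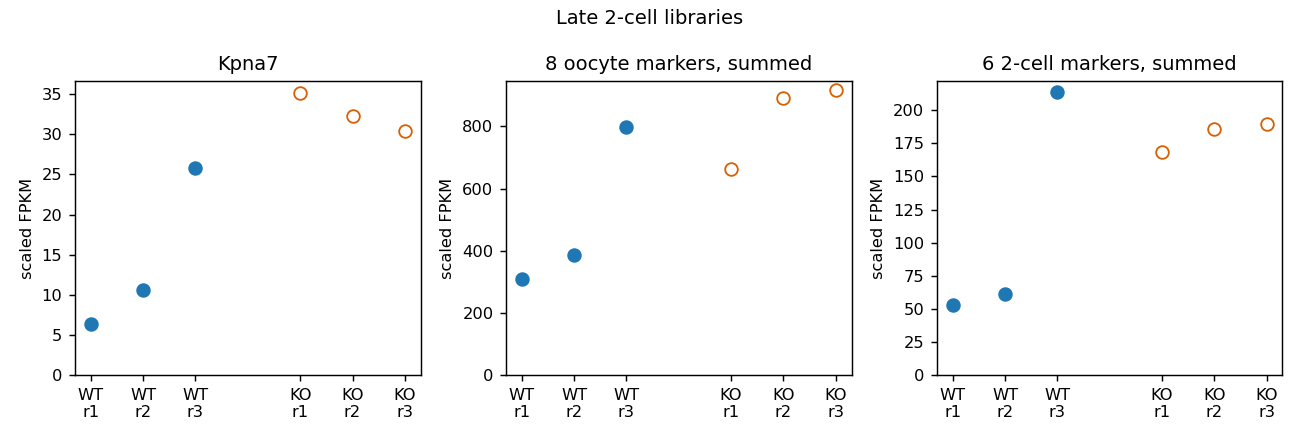
Scaled FPKM (axes from 0) in each of the 6 late 2-cell libraries (r1 to r3, replicates; filled, WT; open, KO) for Kpna7, 8 summed oocyte markers and 6 summed 2-cell markers. WT replicate 3 has 25.8 for Kpna7, between the other WT libraries and the KO libraries, and 796 and 214 for the marker sums.

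The other members at L2C did not pass in the same fit. Kpnb1 was lower in the KO without overlap, at 52.7, 50.4 and 48.9 against 67.2, 64.7 and 61.9 scaled FPKM, a difference of -0.34 (95% confidence interval -0.65 to -0.04, adjusted p = 0.229), which passed with 1 spread shared by all stages (adjusted p = 0.04). Kpna6 held 23.9, 21.1 and 20.3 in the KO (difference -0.33, adjusted p = 0.34), and Kpna4 held 5.51, 6.47 and 6.36 (difference -0.27, adjusted p = 0.595). Without WT replicate 3, Kpna6 passed at -0.47 (adjusted p = 0.0447). Kpna1 was at 42.2, 45.0 and 43.9, within 0.05 of the WT on the log2 scale (95% confidence interval -0.50 to 0.41). Kpna2 and Kpna3 overlapped between genotypes, with differences of -0.14 and 0.31. In all, 1 of 7 members was called beside 0.77% of all genes, and 2 of 7 had groups that did not overlap beside 20.1% of all genes. In the KO the pool held 7.24 ± 0.43 units of importin alpha per Kpnb1 (n = 3).

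**Figure D4:**
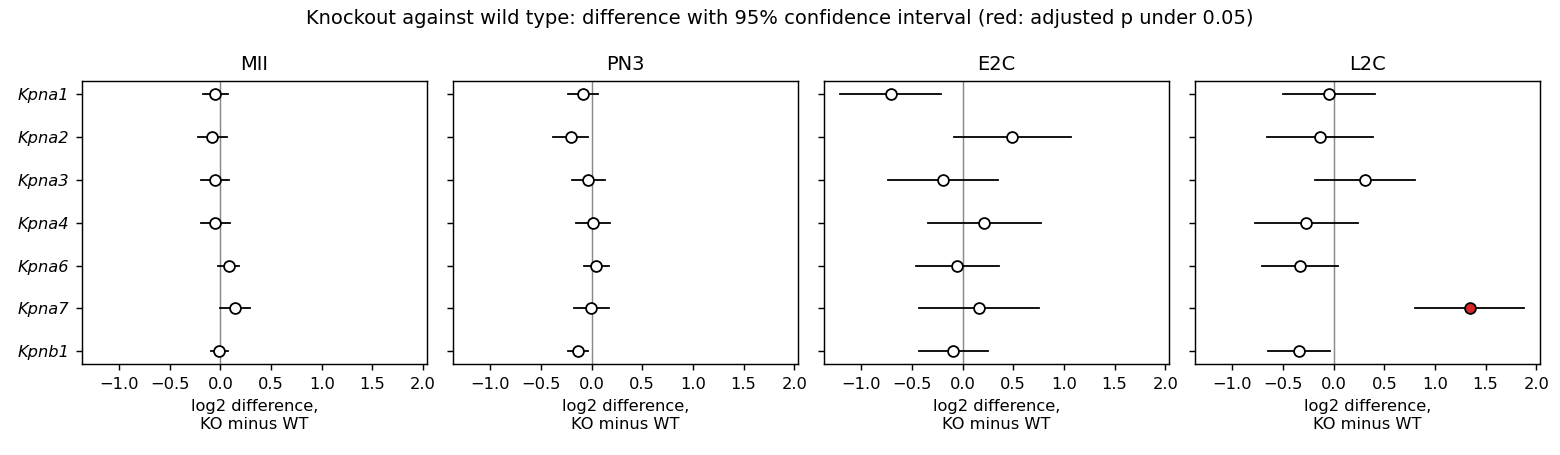
KO minus WT difference on the log2(FPKM + 1) scale for each member at each stage, with its 95% confidence interval (point, estimate; red, adjusted p under 0.05). Kpna7 at L2C, at 1.35, is the 1 red point, and the intervals are wider at the 2-cell stages than at MII and PN3.

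At earlier stages 0 of 7 members were called. In oocytes Kpna7 held 125 and 121 scaled FPKM in the KO, above the WT range of 110 to 113, a difference of 0.14 (95% confidence interval -0.01 to 0.29, adjusted p = 0.211). It was the 1 member of 7 without overlap, beside 40.4% of all genes with 2 against 3 libraries, and 13% of genes were called; 0 members had an unadjusted p under 0.05. The oocyte marker sums did not overlap there either, at 2564 and 2668 in the KO and 2347 to 2387 in the WT, and their part in the Kpna7 difference was not tested. In zygotes Kpna7 was 96.5 to 99.6 in the KO and 94.8 to 101 in the WT, and the 95% confidence interval of the difference was -0.18 to 0.17. There 0 members lacked overlap beside 10.2% of genes, 3.05% of genes were called, and 2 members had an unadjusted p under 0.05: Kpna2 (-0.21, adjusted p = 0.191) and Kpnb1 (-0.13, adjusted p = 0.152). With the replicate number as a block, Kpna2 passed at the same difference (adjusted p = 0.00629).

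In early 2-cell embryos Kpna1 held 2.62, 1.77 and 4.19 scaled FPKM in the KO and 6.31, 5.52 and 3.80 in the WT. The groups overlapped through KO replicate 3 and WT replicate 3. The difference was -0.71 (95% confidence interval -1.21 to -0.21, adjusted p = 0.699), and it was the 1 member with an unadjusted p under 0.05. With 1 spread shared by all stages it passed (adjusted p = 0.0472). Kpna2 leaned the other way, at 161, 206 and 199 in the KO against 107, 120 and 183 (0.49, adjusted p = 0.903). At this stage 0.00828% of genes were called and 9.74% had groups without overlap, against 0 of 7 members in both counts. The KO E2C libraries held 1.83, 0.771 and 5.14 scaled FPKM of Smarca4, the highest in replicate 3. That library also had the highest Kpna1 of the 3 and the highest sum of 2-cell markers (59.1, 48.8 and 130 in the KO). WT E2C replicate 3 had the lowest Smarca4 of its group (19.1) and the lowest Kpna1, but the highest marker sum (215). The part of the remaining Smarca4 RNA or of the marker levels in the Kpna1 levels was not tested.

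Tests of whether the KO effect changed between successive stages called 0 of 7 members each time, beside 2.29% of all genes from MII to PN3, 0% from PN3 to E2C and 0.00828% from E2C to L2C. Members with an unadjusted p under 0.05 numbered 0, 2 and 1 in the same order. The 2 were Kpna1 (-0.63) and Kpna2 (0.70), and the 1 was Kpna7, which was called in the 2 alternatives given above.

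The genes whose log2 values followed a member most closely over the 25 libraries were listed for the 4 members that changed by at least 1 on the log2 scale in the WT from MII to L2C. For Kpna7 they were Plxna4, a semaphorin co-receptor (r = 0.985), Gyg, the glycogenin that primes glycogen synthesis (r = 0.984), and Nlrp4b, of an oocyte NLRP family (r = 0.981). Gyg went from a WT mean of 227 at MII to 45.5 at L2C and Nlrp4b from 90.3 to 7.12. For Kpna1 they were Rbbp6, a ubiquitin ligase (r = 0.997), Fnbp4 (r = 0.996) and the phosphate transporter Slc34a2 (r = 0.995), which went from 0.297 to 176. Kpna4 was followed by the amino acid transporter Slc43a2 (r = 0.995), Gm6880 (r = 0.989) and the folate receptor Folr1 (r = 0.989). Kpna6 was followed by the nuclease gene Dclre1b (r = 0.971), the splicing factor Hnrnpm (r = 0.970) and D7Ertd143e (r = 0.969). The libraries share stage and the values carry no test.

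The rest of the nuclear transport machinery was counted over the same WT change, MII to L2C. Each count stands beside 40.4% of all tested genes called higher and 33.3% called lower. Of 11 other importin beta genes 8 rose and 1 fell. Tnpo3, which imports splicing factors rich in serine and arginine, rose by 5.14 (log2, adjusted p = 6.16e-17), Ipo7 rose by 4.17 (adjusted p = 2.56e-14), and the histone importer Ipo9 fell by 1.0 (adjusted p = 1.24e-07). Of 7 exportins 4 rose and 1 fell. The tRNA exporter Xpot rose by 3.60 (adjusted p = 1.21e-12) and the general exporter Xpo1 by 1.87 (adjusted p = 7.87e-07), while the pre-miRNA exporter Xpo5 fell by 1.18 (adjusted p = 3.35e-06). Xpot met the minimum only through L2C libraries and Tnpo3 only through 2-cell libraries, so a difference between stages was built into both. Cse1l, which recycles importin alpha, held 10.0, 9.11 and 8.95 scaled FPKM at MII and 21.2, 19.1 and 19.3 at L2C, a rise of 1.01 (adjusted p = 6.68e-05).

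Of 8 genes of the Ran cycle in the files 4 rose and 0 fell. Rangap1, the activator of Ran's GTP hydrolysis, rose by 3.48 (adjusted p = 5.43e-11) and the pore filament gene Ranbp2 by 2.98 (adjusted p = 2.5e-12). Ran held 7.61, 8.72 and 8.86 scaled FPKM at MII and 60.9, 47.2 and 34.3 at L2C, a rise of 2.33 (adjusted p = 1.2e-09). Of 29 nucleoporins 11 rose and 11 fell, shares near those of all genes. Among them Tpr of the nuclear basket rose by 2.08 (adjusted p = 2.4e-10) and Seh1l by 1.71 (adjusted p = 7.14e-09), whereas Nup85 fell by 1.91 (adjusted p = 4.72e-11) and Nup37 by 1.64 (adjusted p = 1.33e-09). Seh1l, Nup85 and Nup37 all belong to the Y complex of the pore scaffold. List medians were 1.83, 1.01, 0.71 and -0.08 for these 4 lists, beside 0.13 for all tested genes.

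**Figure D5:**
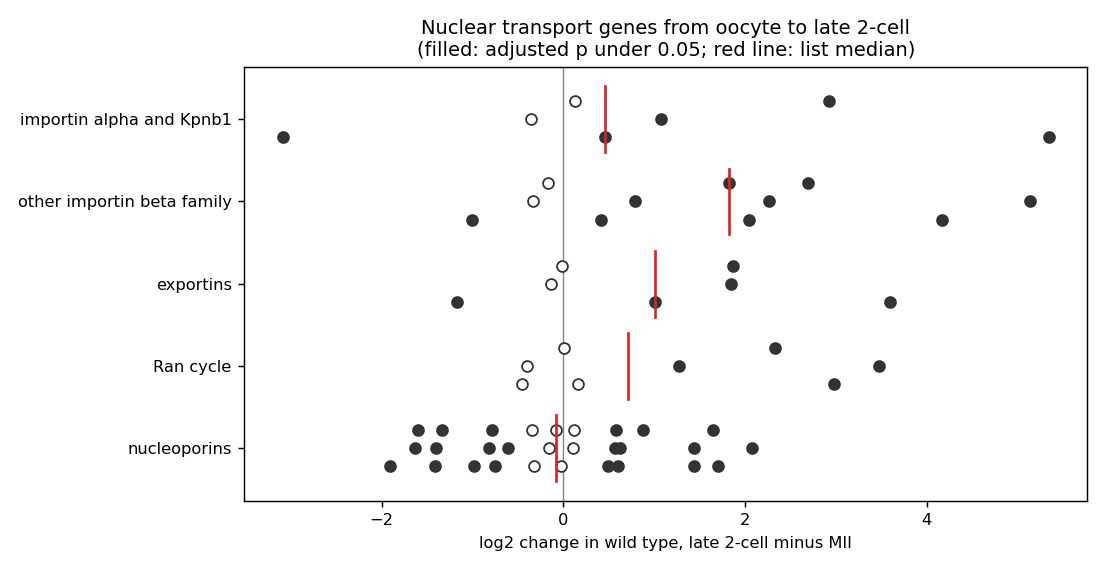
WT change from MII to late 2-cell on the log2(FPKM + 1) scale, 1 point per gene (filled, adjusted p under 0.05; red line, list median), for the 7 members and 4 lists of nuclear transport genes. Kpna7, at -3.09, is the lowest point shown and Kpna1, at 5.35, the highest; nucleoporins spread to both sides.

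Between genotypes at L2C, 0 genes of these 4 lists were called, beside 0.77% of all tested genes. Medians were -0.55 for the other importin beta genes, -0.35 for the exportins, -0.41 for the Ran cycle and -0.10 for the nucleoporins. The median of all tested genes was -0.05. Cse1l did not overlap between genotypes, at 11.5, 17.9 and 17.6 in the KO and 19.1 to 21.2 in the WT (difference -0.35, adjusted p = 0.514). In oocytes, where 13% of all genes were called, 4 genes of the lists were called. These were 1 of 11 other importin beta genes, 0 of 7 exportins, 1 of 8 Ran cycle genes and 2 of 29 nucleoporins. The lists are short, and their shares were not tested against that of all genes. Named after their values were seen, Tnpo1 (0.24, adjusted p = 0.00466), Nupl1 (0.22, adjusted p = 0.00371) and Nup62 (0.16, adjusted p = 0.0357) were higher in the KO. Ran was lower, at 5.46 and 6.21 scaled FPKM against 7.61 to 8.86 (difference -0.46, SE 0.08, adjusted p = 0.000481), and at L2C its difference was -0.23 (adjusted p = 0.725). The 4 oocyte calls are given from the fit with stage weights only, and alternative fits are given for the members alone.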

How the data were processed

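The deposited values are FPKM, fragments scaled to gene length and library total, made by the authors, with 1 value per symbol and library. Tools listed in the submitters' processing notes are HISAT2, HTSeq, StringTie and Trim Galore (version 0.4.5), and the builds listed are GRCm38 and mm10; their roles are not stated. Per the labels' protocols, libraries were stranded, depleted of ribosomal RNA and read in pairs of 150 bases. Which tool computed the FPKM, and whether it used strand, is not stated. Low values showed no steps of whole reads, so the depth of a library is unknown and intervals rest on the spread between libraries alone.

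Each library was divided by its median ratio to the mean library, a geometric mean taken over the 6492 genes that reached an FPKM of 1 everywhere (scaled FPKM). The 12079 genes reaching an FPKM of 1 in 3 or more of the 25 libraries were fitted as log2(scaled FPKM + 1) with limma 3.58.1 in R 4.3.3: 8 group means, library weights estimated per stage, and moderated variances with a trend and a robust prior. The scale understates changes of low genes. Weights were used because the median SD within groups was 0.07 for oocytes, 0.12 for zygotes, 0.30 for early and 0.28 for late 2-cell embryos. P-values were adjusted by Benjamini-Hochberg over all tested genes per comparison and called under 0.05. On simulated data this fit made more false calls than its threshold states at all stages, so results of the compared groups fitted alone are given beside the members' calls they change. The simulation gave each gene the same mean at all stages and its observed spread per stage. Its rate of false calls may therefore differ from that in these data. Alternatives covered scaling, pseudocount, filter, weights, a replicate block and each library left out.

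The members, the transport and marker lists and the tests were chosen with earlier results of these data known. Named genes are the 7 members, Smarca4 as a check of the labels, Cse1l and Ran, up to 2 called rises and 2 called falls per transport list, and the 3 genes most correlated with each member changing by at least 1. Promoter windows came from RefSeq, and exon overlaps and the Kpna2 copy from the GENCODE annotation of GRCm38. Figures were drawn with matplotlib 3.10.9.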

Additional observations from a re-analysis of the deposited data

Results flagged for a closer look

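Kpna4 in WT zygotes was the 1 value flagged among 16 sets of 4 library values tested: replicate 2 held 0.266 scaled FPKM where the other 3 held 0.104 to 0.120, a gap wide against the group's range. About 1 in 20 sets is flagged in this way by chance, and all 4 values lie far below the FPKM of 1 used as the minimum for testing.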

How the results depend on the processing

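Counts of called members moved by more than 1.5 times, or to or from 0, in 6 comparisons, of which 5 are given here and KO against WT at PN3 under the replicate block below. KO against WT at L2C gave 2 members with no stage weights, 0 with the groups fitted alone and 0 to 2 when a library was left out, in place of 1. KO against WT at E2C gave 1 with no stage weights, in place of 0. The change of the KO effect from E2C to L2C gave 1 with no stage weights and 0 to 1 when a library was left out (1 without WT L2C replicate 3), in place of 0. In the WT, MII to PN3 gave 1 with no stage weights, and PN3 to E2C gave 5 with no stage weights and 5 with the groups fitted alone, in place of 2 each. With no stage weights E2C to L2C gave 7 and MII to L2C 6, in place of 5 each. The cause was not tested. Over all members, comparisons and alternatives, called differences kept their call and direction 192 times and lost the call 7 times, while uncalled ones stayed so 503 times, gained a call 29 times and changed sign 18 times. In unscaled values the sign changes were Kpna1 in KO against WT at L2C (0.0022) and Kpna3 from MII to L2C (-0.099). When a library was left out, KO against WT ran from -0.142 to 0.0336 for Kpna3 and from -0.0328 to 0.0109 for Kpnb1 at MII. At PN3 it ran from -0.0838 to 0.0266 for Kpna3, from -0.0040 to 0.0619 for Kpna4 and from -0.0191 to 0.0092 for Kpna7. At E2C it ran from -0.0532 to 0.406 for Kpna4, from -0.104 to 0.0313 for Kpna6 and from -0.187 to 0.0910 for Kpnb1. In the WT it ran from -0.0198 to 0.0461 for Kpna4 (MII to PN3), from -0.0859 to 0.0423 for Kpna7 (PN3 to E2C) and from -0.0516 to 0.272 for Kpna3 (MII to L2C). Unscaled values shifted the median of all genes by -0.17 from MII to L2C and by -0.15 from PN3 to E2C.

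Deviations of same-numbered WT and KO libraries had r of -0.12 and 0.04 at MII, 0.01 to 0.43 at PN3, 0.07 to 0.16 at E2C and -0.18 to 0.21 at L2C. At no stage were all of them above 0.1, so no pairing was used in the fits above. At PN3 and E2C, however, every same-numbered pair was positive. Differently numbered PN3 pairs ran from -0.40 (WT replicate 4 with KO replicate 2) to 0.30 (WT replicate 2 with KO replicate 1). Whether libraries were paired there is not known from these values. With the number as a replicate block, 1 member in place of 0 was called at PN3 between genotypes, Kpna2 at -0.21 (adjusted p = 0.00629), and Kpna7 at L2C kept its call (adjusted p = 0.0352). In the WT the block gave 3, 2, 6 and 6 members over the 4 changes (MII to PN3, PN3 to E2C, E2C to L2C, MII to L2C) in place of 2, 2, 5 and 5.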
